A study of Mus musculus with 17 samples.

Results

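R2 is the major enhancer of the mouse α-globin genes, and the contacts it made within the surrounding α-globin topologically associating domain (TAD) were measured by Capture-C. A contact is a unique ligation between the R2 viewpoint and a DpnII restriction fragment. The members were the fragments with a midpoint inside this TAD, which spanned chr11:32080071-32244878 of mm9, outside the exclusion zone of the viewpoint. There were 382 such fragments, of 404 that DpnII makes in this window. Of these, 380 were seen in the Ter119+ libraries and 363 in the CD71+ libraries, against 25360 and 17925 fragments contacted by R2 over the whole chromosome. The remaining 22 fragments were either listed in no library or lay in the zone.

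The series held 17 libraries in 5 groups. Ter119+ erythroid cells came from the spleens of adult mice made anaemic with phenylhydrazine, and were either WT (3 libraries) or QuadDel (3 libraries), the genotype labelled Dt1t24448. QuadDel mice carried homozygous changes at the CTCF sites θ1 and θ2 and lacked HS+44 and HS+48 together with the sequence between them, on the C57BL/6J background that WT shared. CD71+ erythroid cells were differentiated in embryoid bodies from E14TG2a-derived embryonic stem cells, and were parental WT Hba-a1-YFP (WT αYFP, 3 libraries), Insert[PromoterOnly] Hba-a1-YFP (αPonly, 4 libraries) or Insert[Promoter&Gene] Hba-a1-YFP (αP+G, 4 libraries). All CD71+ groups carried the reporter at Hba-a1 and a single α-globin locus, the other allele having a large deletion. αPonly cells had an extra α-globin promoter, and αP+G cells an extra promoter with its gene body, placed between the enhancers and Hba-x. The insert lines were clones, differentiated independently, and the CD71+ cells resemble primitive erythroblasts. Contact counts hold no expression measure, so the labelled cell types could not be checked against markers. The study describes the Ter119+ libraries as biological replicates and the CD71+ libraries as independent differentiations, and p-values here measure the spread between them. A contact made in more cells and a contact made more often per cell cannot be told apart.

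An enhancer raises transcription of a gene on the same chromosome, and active enhancers are brought close to their promoters inside self-interacting domains. At this locus the elements R1, R2, R3, Rm and R4 lie within or beside Nprl3, a widely expressed gene whose introns host most of them, and act on the embryonic gene Hba-x and the adult genes Hba-a1 and Hba-a2. CTCF halts cohesin in an orientation-dependent manner, so the strand of its binding sequence bears on where a domain ends.

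The sequences below were read from mm9. They are the anchor of every contact and the matches to a core of the CTCF sequence along the window, some of them at edited sites. The first is the start of the viewpoint fragment, at chr11:32151062-32151241 on the + strand, with matches to AGATAA, letters that erythroid GATA factors bind, and to TGACTCA, letters that AP-1 and NF-E2 bind, in capitals. On both strands, AGATAA was found in 17.4% and TGACTCA in 4.97% of all consecutive 300-base windows of chromosome 11.
R2 viewpoint: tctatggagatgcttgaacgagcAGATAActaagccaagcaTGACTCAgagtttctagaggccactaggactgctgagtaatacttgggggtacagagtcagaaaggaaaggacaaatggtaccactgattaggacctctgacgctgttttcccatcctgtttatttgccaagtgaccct

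The letters CC and AGGGGGC with any 3 bases between them, a core of the CTCF sequence, were then searched on both strands of the window. They occurred 6 times, in 1.09% of its 300-base windows, against 0.225% over chromosome 11. The 6 sites follow in genome order, each printed 5′ to 3′ along the strand that carries the letters, which are in capitals. A match is a description of the letters and not evidence of binding.
TAD upstream, chr11:32101141-32101192, - strand: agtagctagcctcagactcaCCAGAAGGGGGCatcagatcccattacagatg
Insertion segment, chr11:32170238-32170289, - strand: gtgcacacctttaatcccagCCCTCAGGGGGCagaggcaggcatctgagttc
θ1, chr11:32186914-32186965, - strand: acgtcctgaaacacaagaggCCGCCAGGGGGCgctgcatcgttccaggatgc
θ2, chr11:32200019-32200070, - strand: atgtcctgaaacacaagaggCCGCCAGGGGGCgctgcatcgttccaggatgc
HS+44/+48 segment, chr11:32221375-32221426, - strand: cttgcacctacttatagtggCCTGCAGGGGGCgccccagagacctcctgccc
HS+65/66 segment, chr11:32242922-32242973, + strand: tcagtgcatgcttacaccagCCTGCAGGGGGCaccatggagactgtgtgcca

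The site in the HS+65/66 segment was the single match on the + strand, 91.5 kb downstream of R2, and the other 5 were on the - strand. The matches at θ1 and θ2 lay 35.5 and 48.6 kb downstream of R2, just before the first annotated exons of Hbq1b and Hbq1a, the θ-globin genes.

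R2 gave 33105 to 48806 unique contacts per Ter119+ library and 15405 to 33631 per CD71+ library. Between 17115 and 25850 (Ter119+) and between 9834 and 21735 (CD71+) of these lay on chromosome 11 outside the zone, and all values below are interactions per 100,000 of that total. Members had a median mean count of 10.1 in Ter119+ and 9.55 in CD71+ cells, so single fragments were measured with few reads, and 285 and 271 of them reached the mean count of 5 needed for a test. Counts were therefore also summed over 23 segments that tile the window. Fragments that served as viewpoints themselves were never listed as contacts of R2. In Ter119+ cells this removed the promoter fragments of Hba-a1 and Hba-a2 and the cores of R1, HS-38 and HS-39, and in CD71+ cells the neighbourhoods of R1 and HS-38, so contacts with these could not be measured there. Intervals and limits from counts cover counting error alone.

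The TAD window held between 57.9% and 63.6% of the contacts of R2 in every library. The shares were 58.4%, 60.5% and 61.7% in QuadDel and 59.8%, 59.3% and 60.1% in WT. In CD71+ cells they ranged from 57.9% to 63.6% in WT αYFP, from 59.7% to 61.7% in αPonly and from 60.5% to 63.6% in αP+G. The groups overlapped, and no difference passed the test (QuadDel minus WT 0.489 percentage points, exact two-sided permutation p = 0.7, adjusted p = 0.862 over 16 tests). The direction of that small difference turned to -1.34 points when fragments beside the viewpoint were kept. The sub-TAD, which runs from HS-38 to just beyond θ2, held 86.4% to 88.9% of the contacts in the window in Ter119+ and 83.5% to 86.1% in CD71+ cells.

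Up to 60 kb, contacts of R2 were denser in every library on the side of the globin genes than on the other side at matched distance. In WT cells, density at 5 to 10 kb was 1143 ± 43.1 interactions per 100,000 per kb downstream and 282 ± 25.5 upstream (SD, n = 3). At 30 to 40 kb, which reaches Hba-a1, it was 760 ± 46.8 downstream and 108 ± 18.5 upstream, and the ratio of both sides was 6.27 to 9.01 in the 3 libraries. At 60 to 70 kb the ratio had come down to a mean of 1.64 ± 0.55 (SD, n = 3). In WT αYFP cells the ratio at 30 to 40 kb was 4.39 to 5.40, and at 60 to 70 kb it was 1.30 to 1.38. At that distance αPonly replicate 1 had the one ratio below equal density, 0.912. Downstream density did not decline steadily with distance: in WT it was 615 ± 32.4 at 20 to 30 kb and higher again, 760 ± 46.8, at 30 to 40 kb. Beyond the sub-TAD, at 50 to 60 kb, it was 137 ± 16.5, against 559 ± 52.4 at 40 to 50 kb. These bins were chosen for description and no test was run between them.

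**Figure D1:**
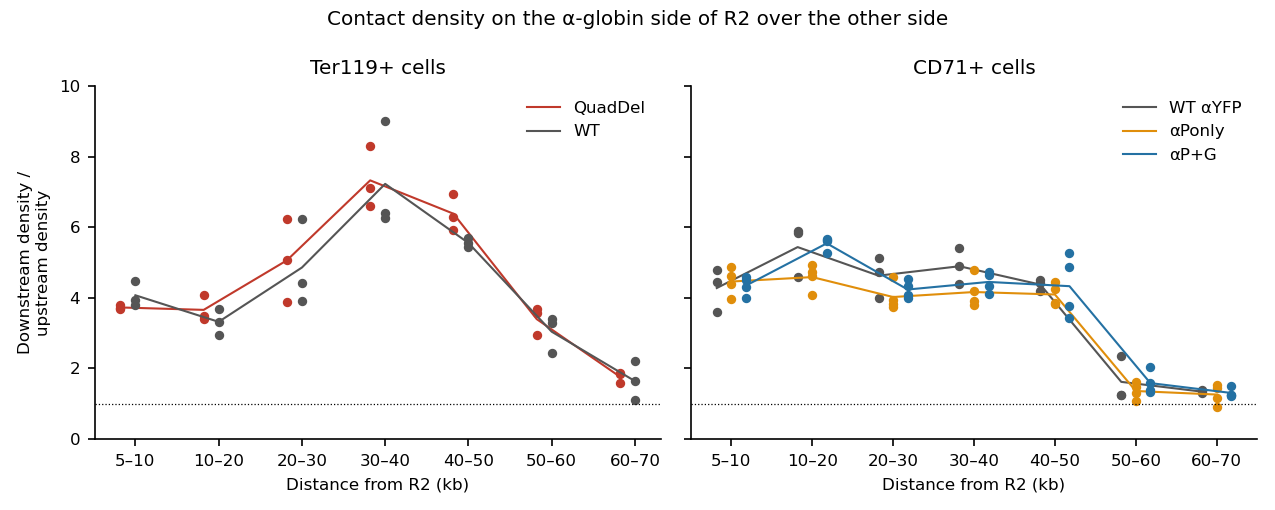
Ratio of R2 contact density downstream (globin side) to upstream, by distance from R2 in kb, for each library (points) with the group mean (line). Left, Ter119+ cells. Right, CD71+ cells. The dotted line marks equal density. The WT ratio is highest at 30 to 40 kb, where the libraries lie between 6.27 and 9.01, and near 1 to 2 at 60 to 70 kb.

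Among the enhancers, R3 had the densest contacts with R2, at 2002 interactions per 100,000 per kb in WT and 2578 in WT αYFP. R4 reached 937 and 919 and Rm 599 and 665. The Rm segment was measured over 4.343 kb in 6 fragments and R4 over 2.812 kb in 8. Density depended on fragment length, as given below, so the gap does not rank these elements. A single Rm fragment, chr11:32165890-32166169, reached 1888 per kb in WT. R1, upstream, reached 944 in WT over the part outside its viewpoint fragment. Over the globin genes, the measured part of Hba-a1 reached 1091 in WT, and that of Hba-a2 699. These parts differ in length, 2.065 and 3.654 kb, and share an identical fragment of 275 bp, so the gap does not show a preference for either gene. The segment between the genes, from Hbq1b to Hba-a2, was at 468. Hbq1b with θ1 was at 805, while Hbq1a with θ2 was at 206. The latter segment includes a long fragment, chr11:32200470-32203107, that runs past the end of the sub-TAD. From there density was 119 up to HS+44, 73.9 over HS+44/+48, 32.6 between HS+48 and HS+65 and 20.1 over HS+65/66. Upstream of the sub-TAD it was 120, 101 and 46.4 from the nearest to the farthest segment, which hold Rhbdf1, Mpg, Snrnp25 and Il9r.

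**Figure D2:**
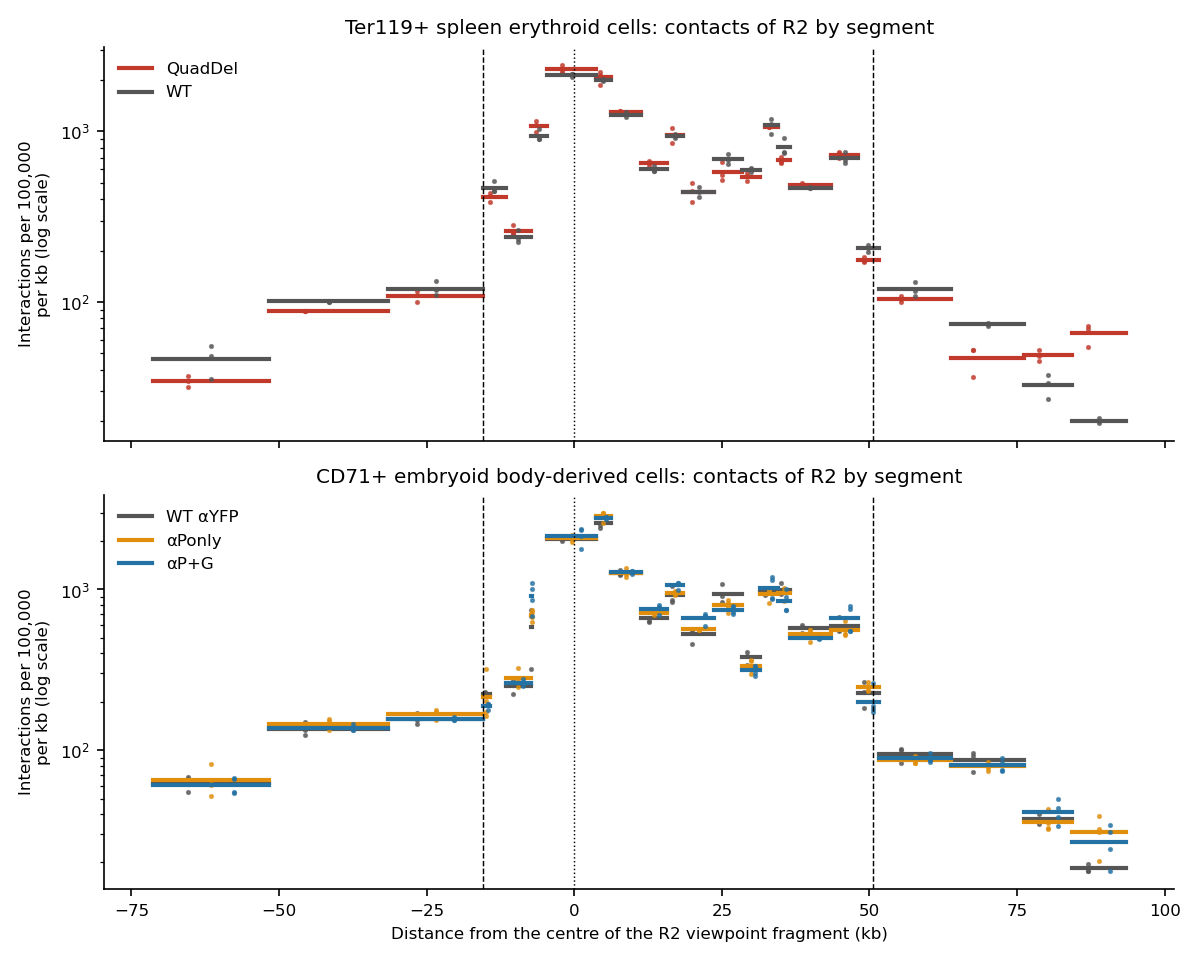
Density of R2 contacts (interactions per 100,000 per kb of measured fragment, log scale) in each segment against distance from the centre of the R2 viewpoint in kb. Horizontal bars are group means and span the segment, points are libraries, the dotted line marks R2 and dashed lines the sub-TAD borders. Group means of segments between the dashed lines lie above those outside, and QuadDel lies above WT in the last 2 segments on the right.

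Of the 10 fragments with the highest density in WT, among those of at least 200 bp and at least 5 kb away, 8 lay in introns of Nprl3 between R3 and Rm. The densest was chr11:32162538-32162749, at 2130 per kb. The other two were a pair in Hba-a1 (chr11:32183838-32184112, 1824 per kb) and Hba-a2 (chr11:32196655-32196929, 1812 per kb), more than 30 kb from R2. In WT αYFP the densest was chr11:32162034-32162246, at 2949 per kb, and the 10 also held fragments in exons of Hbq1b (1821 per kb) and Hba-x (1682 per kb). The 2 lists shared 6 fragments. Density also depended on fragment length: its median in WT was 487 per kb over 71 members under 100 bp, 283 over 196 members of 100 to under 500 bp and 75.0 over 113 longer members, so lengths have to be read beside it.

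The Hba-a1 and Hba-a2 pair is identical over its 275 bases, which cover exon and intron sequence of these duplicated genes, and is shown because reads cannot be assigned to either copy by their own letters.
Hba-a1 and Hba-a2 exon fragment, + strand: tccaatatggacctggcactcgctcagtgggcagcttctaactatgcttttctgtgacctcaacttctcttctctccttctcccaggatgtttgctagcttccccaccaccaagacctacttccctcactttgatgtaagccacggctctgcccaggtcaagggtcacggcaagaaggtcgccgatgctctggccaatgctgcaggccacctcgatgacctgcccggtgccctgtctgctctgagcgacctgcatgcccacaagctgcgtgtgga

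The WT libraries had 605, 494 and 406 interactions per 100,000 on the Hba-a1 fragment and 599, 489 and 406 on the Hba-a2 fragment. The values of both copies were thus nearly the same library by library, and how much each gene contributed cannot be told apart.

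The fragments that hold gene starts differed widely. In WT cells the one at the start of Nprl3 (chr11:32167510-32168370, in the R4 segment) was at 478 interactions per 100,000 per kb, that of Hba-x (chr11:32176203-32176928) at 431, that of Hbq1b at 619 and that of Hbq1a at 370. Upstream of the sub-TAD, the starts of Mpg, a DNA glycosylase gene, and of Snrnp25, Rhbdf1 and Il9r were at 246, 86.6, 49.2 and 39.2. The promoter fragments of Hba-a1 and Hba-a2 were measured only in CD71+ cells. In WT αYFP they had 546, 529 and 509 interactions per 100,000 (Hba-a1, chr11:32182971-32183819) and 523, 432 and 523 (Hba-a2, chr11:32195806-32196636), or 622 and 593 per kb. That was close to the 640 per kb of the Hba-x start in the same cells. The study describes the promoters of Hba-a1 and Hba-a2 as almost identical in sequence. How far reads on these fragments can be assigned to one gene was not tested.

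Ter119+ and CD71+ cells differed in source, developmental stage, phenylhydrazine treatment, the reporter at Hba-a1, capture, zone and number of alleles. Their values were therefore set side by side with no test, over the 361 fragments seen in both. Hba-x took 6.23% of these contacts in WT and 7.50% in WT αYFP. The segment just upstream of Hba-a1 took 3.55% and 1.97%, and the span from R3 to Rm 12.3% and 10.9%. The sub-TAD end to HS+44 took 2.76% and 1.95%.

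QuadDel and WT were compared to ask whether the downstream CTCF sites bound the contacts of R2. Contacts with the far downstream end of the TAD rose in QuadDel. Those with the segment of HS+44 and HS+48, part of which is deleted in QuadDel, were fewer. HS+65/66, the last segment before the TAD end, had 657, 634 and 497 interactions per 100,000 in QuadDel and 178, 182 and 190 in WT. All QuadDel libraries thus lay above all WT libraries, by 1.71 ± 0.15 on the log2 scale (edgeR quasi-likelihood test, fold change ± SE, adjusted p = 4.59e-04). Each of its 13 fragments had a higher mean in QuadDel, against 42.1% of all 380 members. The neighbouring segment, HS+48 to HS+65, had 387, 423 and 362 in QuadDel and 300, 216 and 271 in WT, again without overlap (log2 0.59 ± 0.15, adjusted p = 0.0327). HS+44/+48 had 640, 643 and 450 in QuadDel and 927, 887 and 921 in WT (log2 -0.64 ± 0.13, adjusted p = 0.0166). Sequence that QuadDel lacks can give no contacts, so this call does not show that contacts of the remaining sequence changed. On the other side of R2, the segment TAD upstream b, which holds the starts of Il9r, a cytokine receptor gene, and Snrnp25, a minor spliceosome gene, had 1792, 1781 and 1794 in QuadDel and 2020, 2043 and 2023 in WT (log2 -0.18 ± 0.04, adjusted p = 0.0166). In total 4 of the 23 segments were called, 2 higher and 2 lower, where the fit called 20% of its 25 segments, 12% higher and 8% lower, the fifth being the region beyond the TAD. That flank, up to 32329896, had 1543 to 1664 in QuadDel and 555 to 851 in WT.

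**Figure D3:**
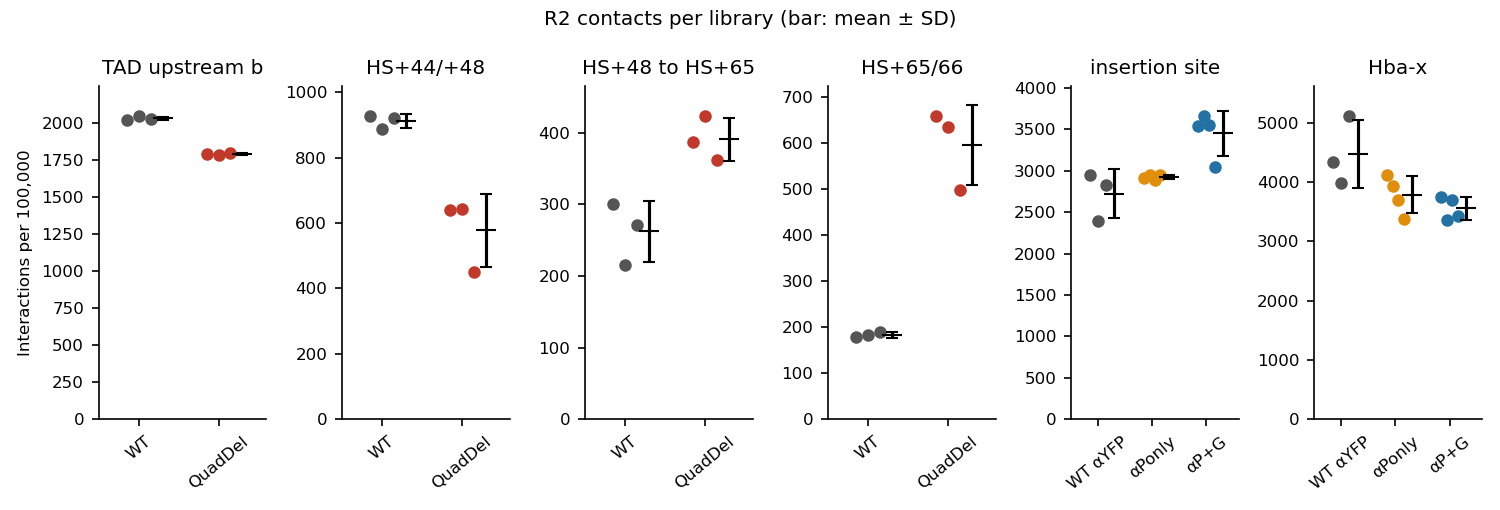
Interactions of R2 per 100,000 in the 6 called segments, one point per library, with the group mean and SD beside them. The 4 panels on the left compare WT and QuadDel, and the 2 on the right the CD71+ groups. QuadDel libraries lie between 497 and 657 over HS+65/66, all above the WT libraries at 178 to 190.

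The call for HS+65/66 held in each alternative fit run and without any single library. Leaving out 1 library left 2 called segments without QuadDel replicate 2 and 1 without WT replicate 2 or WT replicate 3. The small change of TAD upstream b lost its call in 6 of 7 other fits. That of HS+48 to HS+65 lost it in 2 of 7, one of them the DESeq2 test (adjusted p = 0.0502), and without QuadDel replicate 1 or 2 or WT replicate 2 or 3 (edgeR adjusted p = 0.0565 to 0.153). HS+44/+48 kept its call in all 7 but lost it without WT replicate 2 (adjusted p = 0.0641) or 3 (adjusted p = 0.0532).

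Part of the fall over HS+44/+48 came from 8 neighbouring fragments, chr11:32221719-32224324, found by their counts and therefore given as a description. They had 4, 3 and 2 reads in the QuadDel libraries and 32, 29 and 57 in WT, or 17.2, 13.5 and 11.7 against 178, 139 and 221 interactions per 100,000. The run begins directly after the fragment that holds the HS+44 site, on the side of HS+48. QuadDel lacks the sequence between these sites, so the start of the run falls in deleted sequence. The study puts the deleted sequence between the sites at about 4 kb, longer than the run, which would place the whole run in deleted sequence. The exact ends of the deletion were not mapped here. The other 23 fragments of the segment had 623, 630 and 438 in QuadDel and 749, 748 and 700 in WT. They include the fragment of HS+44, so they are not all intact sequence. The fragment with the CTCF letters in this segment, chr11:32220920-32221718, had 25.8, 22.5 and 5.84 in QuadDel and 55.5, 28.8 and 46.4 in WT (log2 -1.17 ± 0.64, adjusted p = 0.549). QuadDel lacks the HS+44 site in it, so an altered fragment cannot be told apart from an altered contact.

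**Figure D4:**
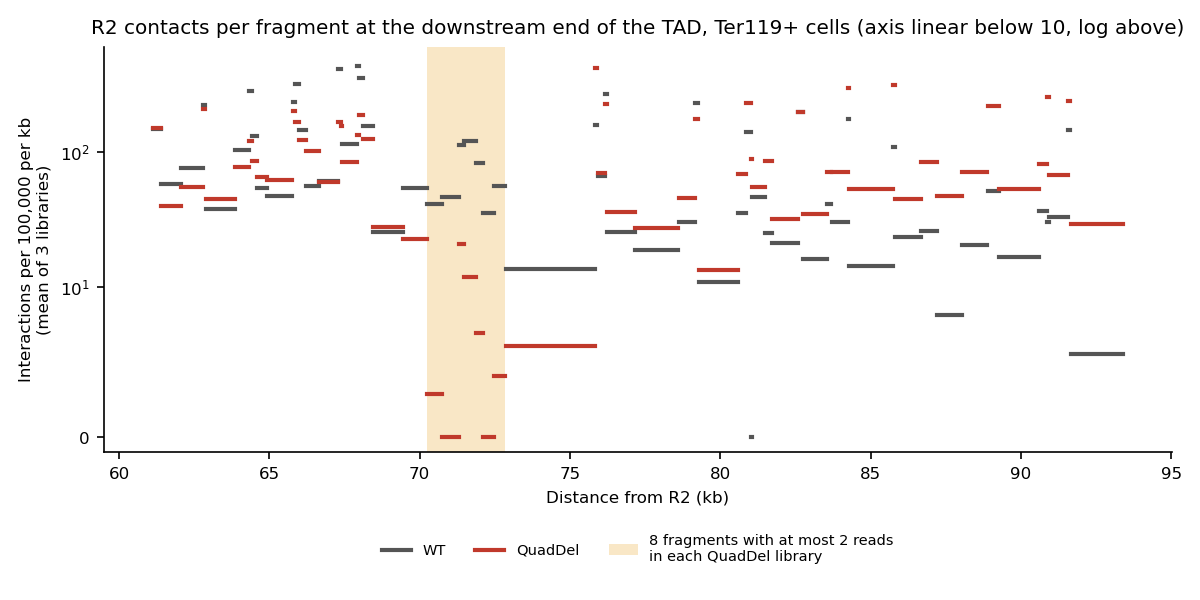
Mean density of R2 contacts (interactions per 100,000 per kb, 3 libraries, axis linear below 10 and logarithmic above) for each fragment of at least 30 bp between 60 kb and the end of the TAD, against distance from R2. The shaded span holds 8 fragments, each with at most 2 reads in any QuadDel library. Beyond about 80 kb the QuadDel bars lie above the WT bars for nearly every fragment.

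By single fragments, 5 of 285 tested members were called between QuadDel and WT, where the fit called 1.71% of 293 fragments over the chromosome, 1.02% higher and 0.683% lower. At an unadjusted p under 0.05 there were 17 higher and 6 lower members. The 3 that rose all lay in HS+65/66. chr11:32240360-32240737 had 103, 94.4 and 52.6 interactions per 100,000 in QuadDel and 22.2, 9.59 and 27.1 in WT (log2 2.05 ± 0.54, edgeR adjusted p = 0.0146). chr11:32243121-32244878 had 85.9, 40.5 and 29.2 against 11.1, 14.4 and 3.87 (log2 2.44, adjusted p = 0.0381), and chr11:32235768-32237202 had 55.9, 126 and 46.7 against 11.1, 24.0 and 27.1 (log2 1.82, adjusted p = 0.0486). None of these groups overlapped, yet they rest on at most 28 reads in a library. The fragment that holds the + strand CTCF letters, chr11:32242419-32243039, had 60.2, 36.0 and 29.2 in QuadDel and 33.3, 24.0 and 3.87 in WT and was not called (log2 1.14 ± 0.64, adjusted p = 0.559). One of the 2 fragments that fell, chr11:32222955-32223357, lay in the depleted run, with 8.59, 0 and 5.84 against 61.0, 43.2 and 42.6 (log2 -3.19 ± 0.82, adjusted p = 0.0146). By the study's description of the deletion, QuadDel would lack this sequence, so the call does not show a changed contact. The 0 in QuadDel replicate 2 is a count of no reads.

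The other fragment that fell was 128 bp long and lay just upstream of Hba-a1, in the intergenic sequence between Hba-x and the gene. It is shown because it had the smallest p-value of all members.
Fragment upstream of Hba-a1, chr11:32182317-32182444, + strand: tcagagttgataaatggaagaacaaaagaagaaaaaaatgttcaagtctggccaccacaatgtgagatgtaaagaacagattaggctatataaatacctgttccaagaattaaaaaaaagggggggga

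It had 219, 171 and 205 interactions per 100,000 in QuadDel and 383, 297 and 379 in WT, without overlap (log2 -0.83 ± 0.20, adjusted p = 0.00798). Its neighbour chr11:32181399-32182316 had 344, 270 and 397 against 355, 340 and 391 (log2 -0.12 ± 0.17, adjusted p = 0.831). The segment of both had a log2 difference of -0.14 ± 0.05 (adjusted p = 0.0884). The fragment calls were less firm than the segment calls. DESeq2 called 0 members, no member was called without QuadDel replicate 2 or without WT replicate 3, 1 without WT replicate 2 and 3 without QuadDel replicate 1.

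At the edited genes, the Hbq1b fragment with θ1 (chr11:32186469-32187032) had 284, 279 and 280 in QuadDel and 338, 326 and 383 in WT (log2 -0.32 ± 0.18, adjusted p = 0.559). The Hbq1a fragment with θ2 (chr11:32199493-32200137) had 241, 234 and 175 against 200, 273 and 244 (log2 -0.13 ± 0.21, adjusted p = 0.831). The QuadDel edits change the sequence of both fragments, and an altered fragment cannot be told apart from an altered contact. The exon pair of Hba-a1 and Hba-a2 was not called, with log2 -0.10 ± 0.15 and -0.09 ± 0.15 (adjusted p = 0.831 for both). Hba-x had 3128, 2644 and 2477 in QuadDel and 3079, 3496 and 3238 in WT, with overlap (log2 -0.25 ± 0.09, adjusted p = 0.0884).

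The step at the sub-TAD end, the log2 ratio of contacts in the 15 kb before and after it, was 2.39, 2.34 and 2.50 in QuadDel and 2.41, 2.22 and 2.04 in WT. No difference passed the test (difference 0.19, exact permutation p = 0.3, adjusted p = 0.831), and 3 libraries against 3 cannot give a p below 0.1. The step at the upstream border was 1.35, 1.20 and 0.99 in QuadDel and 0.88, 1.18 and 1.07 in WT (difference 0.14, exact permutation p = 0.4, adjusted p = 0.831). The step at the insertion position, which carries no insert in these mice, was 0.57, 0.61 and 0.92 in QuadDel and 0.55, 0.36 and 0.46 in WT. All QuadDel values lay above all WT values, at the smallest p possible (exact permutation p = 0.1, adjusted p = 0.533).

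αP+G and WT αYFP cells were compared to ask whether a transcribed gene placed between the enhancers and their targets alters the contacts of R2. Contacts were higher just around the insert and lower over Hba-x beyond it. The insertion segment had 3545, 3659, 3559 and 3050 interactions per 100,000 in αP+G and 2949, 2388 and 2830 in WT αYFP, without overlap (log2 0.35 ± 0.09, edgeR adjusted p = 0.00707). All 14 of its fragments had a higher mean in αP+G, against 49.3% of all 363 members. One of them, chr11:32170702-32172142, holds the insertion site and is altered by the insert (log2 0.62 ± 0.22, edgeR adjusted p = 0.136). There an altered fragment cannot be told apart from an altered contact. Hba-x, the embryonic α-like globin gene, had 3750, 3351, 3698 and 3424 in αP+G and 4342, 3984 and 5106 in WT αYFP, again without overlap (log2 -0.33 ± 0.09, adjusted p = 0.00707). These were 2 of 23 segments, where the fit called 8% of its 25, 4% in each direction. Both calls were lost when the fit held only these groups (adjusted p = 0.0799 for each). The insertion segment was also lost without WT αYFP replicate 2 (adjusted p = 0.0571), which left 1 called segment, and Hba-x without WT αYFP replicate 3 (adjusted p = 0.0779), while 4 segments were called without αP+G replicate 4.

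The single fragment called was chr11:32181399-32182316, in the intergenic sequence between Hba-x and Hba-a1 and next to the 128 bp fragment printed above. It had 193, 105, 86.8 and 167 in αP+G and 317, 262 and 328 in WT αYFP, without overlap (log2 -1.13 ± 0.25, adjusted p = 0.00580). In αPonly it had 186, 305, 210 and 251. This was 1 of 271 tested members, where the fit called 0.357% of 280 fragments, and at an unadjusted p under 0.05 there were 14 higher and 13 lower members. The call was lost without WT αYFP replicate 3 (adjusted p = 0.0693) or αP+G replicate 2 (adjusted p = 0.0920), and 3 members were called without WT αYFP replicate 2 or αP+G replicate 3 and 2 without αP+G replicate 1. The 128 bp fragment itself had 54.3, 105, 92.6 and 97.7 in αP+G and 118, 69.0 and 69.4 in WT αYFP (log2 0.08 ± 0.36, adjusted p = 0.991).

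The exon fragment shared by Hba-a1 and Hba-a2, and by the inserted gene body of αP+G, had 651, 530, 822 and 471 in αP+G on the Hba-a1 copy and 405, 364 and 481 in WT αYFP. It was not called (log2 0.57 ± 0.19, adjusted p = 0.131), nor was the Hba-a2 copy (log2 0.55 ± 0.19, adjusted p = 0.135). In αPonly, whose insert lacks the gene body, the Hba-a1 copy had 413, 346, 441 and 434. The Hba-a1 promoter fragment had 681, 542, 683 and 408 in αP+G (log2 0.13 ± 0.18, adjusted p = 0.833), and the Hba-a2 promoter fragment 693, 560, 758 and 442 (log2 0.32 ± 0.19, adjusted p = 0.499). Reads from an inserted copy align to these native fragments and cannot be told apart from them.

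αPonly and WT αYFP cells were compared for the effect of the promoter alone. None of the 23 segments and none of 271 tested members was called by edgeR, where the fit called 0% of 25 segments and 0.357% of 280 fragments. At an unadjusted p under 0.05 there were 3 segments and 20 members, and DESeq2 also called 0 members and 0 segments. The fit of these groups alone and the zone widened by 5 kb each called 2 segments. The insertion segment had 2918, 2949, 2895 and 2948 in αPonly, inside the range of WT αYFP (log2 0.11 ± 0.09, adjusted p = 0.641). Hba-x had 4109, 3935, 3703 and 3382 (log2 -0.25 ± 0.09, adjusted p = 0.102). HS+65/66 had 186, 295, 357 and 283 in αPonly against 162, 179 and 162 in WT αYFP (log2 0.75 ± 0.24, adjusted p = 0.102). Leaving out 1 library gave at most 2 called segments (2 without αPonly replicate 1, 1 without WT αYFP replicate 2) and 1 called member (without WT αYFP replicate 2 or αPonly replicate 1).

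αP+G and αPonly cells, compared directly for the effect of the gene body, had 0 called segments of 23 and 0 called members of 271, where the fits called 0% of 25 segments and 0% of 280 fragments. At an unadjusted p under 0.05 there were 2 segments and 17 members, while DESeq2 called 1 segment. The insertion segment was higher by log2 0.24 ± 0.08 in αP+G (adjusted p = 0.173) and Hba-x lower by 0.09 ± 0.08 (log2 -0.09, adjusted p = 0.529), so no difference between them was shown. The exon pair was higher in αP+G by log2 0.58 ± 0.18 on the Hba-a1 copy and 0.61 ± 0.18 on the Hba-a2 copy, short of the threshold (adjusted p = 0.131 for both). Without αP+G replicate 4 there were 2 called segments, and 2 members were called without αP+G replicate 2 or 4. The comparisons of αP+G and of αPonly with WT αYFP share the same 3 control libraries.

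**Figure D5:**
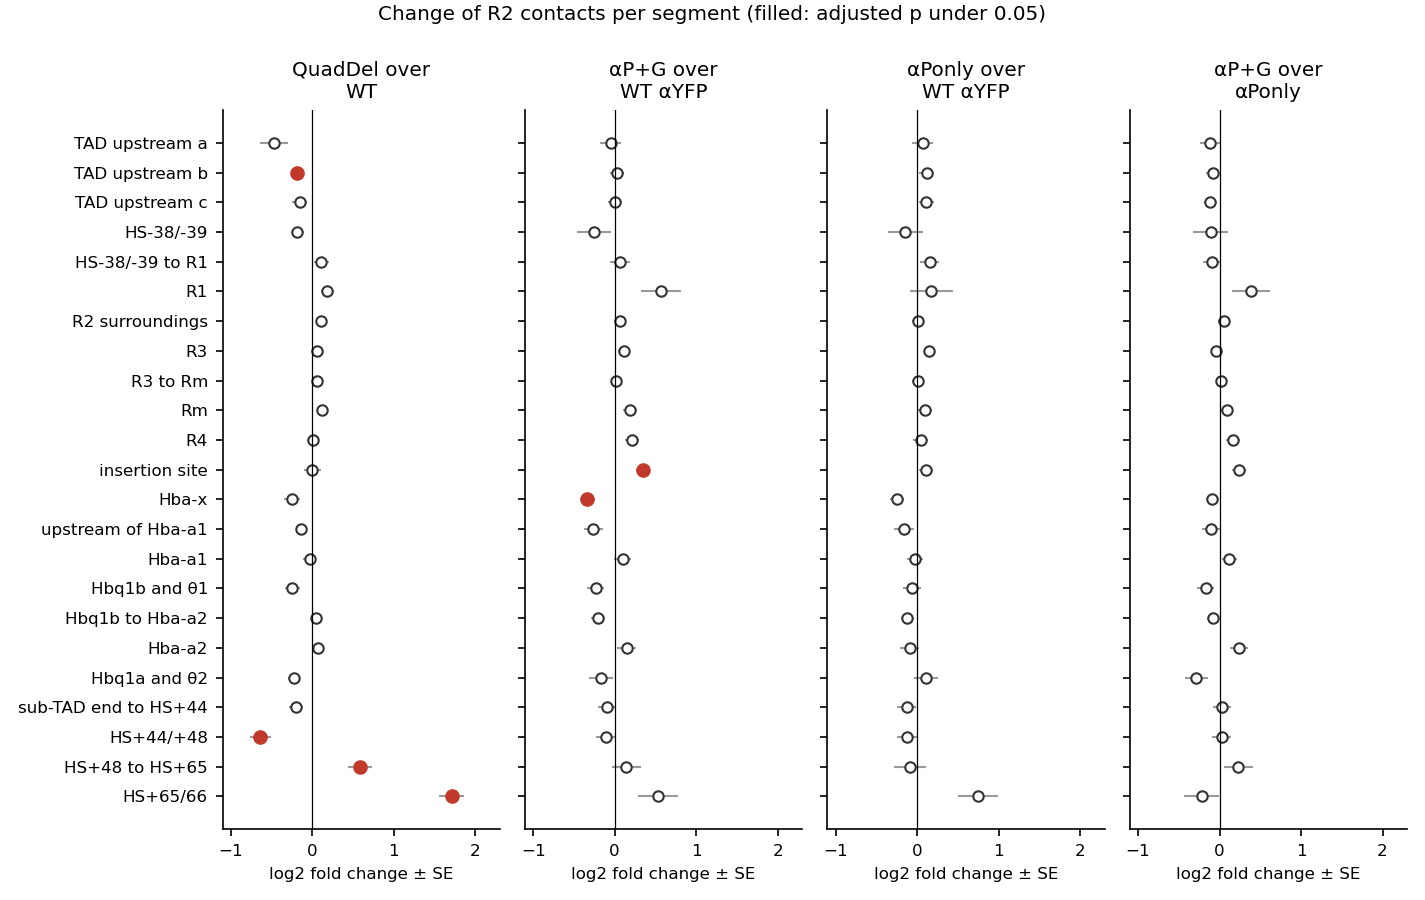
Log2 fold change of R2 contacts per segment with its SE, in genome order from top to bottom, for the 4 comparisons. Filled points passed an adjusted p of 0.05 (edgeR) and open points did not. HS+65/66 at 1.71 in QuadDel over WT lies farthest from 0, and no point is filled in the 2 panels on the right.

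The step at the insertion position, over 10 kb on each side, was 0.43, 0.43, 0.43 and 0.45 in αP+G, 0.26, 0.34, 0.31 and 0.46 in αPonly and 0.13, 0.23 and 0.19 in WT αYFP. All libraries with an insert lay above all WT αYFP libraries. The difference was 0.26 for αP+G (exact permutation p = 0.0286, the smallest possible, adjusted p = 0.457). For αPonly it was 0.16 (exact permutation p = 0.0571, adjusted p = 0.457). Neither passed the correction over 16 tests. A single measure at the smallest possible p cannot pass that correction by itself, so the adjusted values do not decide whether the step differs. The window before the position includes the fragment that the insert alters. The step at the sub-TAD end averaged 2.73 ± 0.25 in αP+G, 2.76 ± 0.16 in αPonly (SD, n = 4 each) and 2.66 ± 0.10 in WT αYFP (SD, n = 3), and the step at the upstream border 0.01 ± 0.08, -0.00 ± 0.14 and -0.10 ± 0.22, with adjusted exact permutation p-values of 0.831 to 0.943 in these groups. Steps use summed contacts, and in CD71+ cells the zones of HS-38 and R1 take fragments out of the inner window of the upstream border. The values near 0 therefore do not show that this border is absent, nor compare with those of Ter119+ cells. Per kb, WT αYFP had 225 over HS-38/-39 and 250 from there to R1, inside the border, and 157 in TAD upstream c, outside it.

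Finally, each change seen from R2 was tested against the change seen from R1, the other enhancer viewpoint, in one model with library as a block. None of the 21 window segments that both could see was called in any of the 4 comparisons (edgeR), where the fits called 0% of 23 segments, and 1 or 2 per comparison had an unadjusted p under 0.05. For HS+65/66 in QuadDel the R2 change exceeded the R1 change by log2 0.35 ± 0.23 (adjusted p = 0.604), and for Hba-x in αP+G it was lower by 0.26 (log2 -0.26 ± 0.10, adjusted p = 0.216). Leaving out αPonly replicate 4 gave 2 called segments between αP+G and αPonly, and every other library left out gave none.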

How the data were processed

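R2 contacts were measured by Capture-C in 6 Ter119+ and 11 CD71+ libraries. Per the study's methods, the authors trimmed reads with Trim Galore, joined overlapping pairs, cut them in silico at DpnII, aligned them with Bowtie to mm9 or to a custom reference, and removed PCR duplicates. Which libraries used the custom reference was not established here, and the members of both captures have the coordinates of mm9 DpnII fragments. The deposited values are counts of unique interactions per fragment and viewpoint, not normalized.

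Counts were scaled to the chromosome 11 total of R2 outside its exclusion zone. Those averaging 5 or more reads per library, single fragments and summed segments alike, entered the quasi-likelihood test of edgeR 4.0.16 in R 4.3.3, with Benjamini-Hochberg adjustment at 0.05, over every fragment of chromosome 11 past that filter. The CD71+ groups shared 1 fit. Shares and steps were tested by exact two-sided permutation over libraries (numpy 2.4.6), adjusted over 16 tests. The 4 comparisons of groups were fitted within each capture. On simulated data, 60 of 280 to 293 fragments were changed, with a common spread for all. Of those changed 4-fold 90% to 93.3% were recovered, and of those changed 2-fold 60% to 66.7%. In each simulation 2 or 3 unchanged fragments were called. Far fewer fragments were called in the data, so these rates do not give the power reached there. Named fragments were those called, the 10 densest of at least 200 bp and 5 kb away in each wild-type group, and those holding gene starts. Fragments with CTCF letters, the exon pair and neighbours of called fragments were named after their values were seen. Segments for the HS+ sites were placed from the distances in their names. The names Rm and R4 hold no distance, and the placement of their segments was not checked against another source. Members and lists were chosen with earlier results of these data known. Replicates differed by more than sampling noise (chi-square per degree of freedom 1.48 to 2.42), so none was counted as a duplicate. Alternatives were TMM and DESeq2 1.42.0 size factors, the DESeq2 test, other zones, library sizes, count filters, bins and windows, a replicate block and leaving out each library.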

Additional observations from a re-analysis of the deposited data

Results flagged for a closer look

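Outlying libraries were looked for in the groups of 4 with Dixon's criterion, in 70 sets of values, and 2 were beyond its 95% limit, where chance gives about 1 in 20. Both were lows of αP+G replicate 4. Over R4 it had 2786 interactions per 100,000, against 3044 to 3093 in the other libraries of its group (gap over range 0.841). On chr11:32240360-32240737 it had 5.74, against 11.6 to 12.3 (gap over range 0.887), which is 1 read against 2 in each of the others.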

How the results depend on the processing

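Depth was the main limit, with a median mean count near 10 reads per fragment. The segment HS+65/66 kept its direction and call in QuadDel under all alternatives run for it. Of the fragments called between QuadDel and WT (5), DESeq2 size factors in edgeR gave 8, the DESeq2 test 0, keeping fragments that straddle the zone 12, and mean counts of at least 1 or 20 gave 1 each. For αP+G against WT αYFP (1), TMM, DESeq2 size factors, the zone with straddling fragments kept, the zone widened by 5 kb and a mean count of 20 gave 3 each, and the TAD total and 5 kb bins 2 each. For αPonly against WT αYFP (0), TMM, size factors and the TAD total gave 1 each. Of segments, the DESeq2 test gave 4 and the fit of these groups alone 0 for αP+G against WT αYFP (2), the wider zone and the fit of these groups alone 2 each for αPonly against WT αYFP (0), and TMM, size factors and the DESeq2 test 1 each for αP+G against αPonly (0). The causes were not tested. The direction turned for the TAD share of QuadDel minus WT (0.489), to -1.34 with straddling fragments kept and -0.25 with the wider zone, for the sub-TAD end step of αP+G minus αPonly (-0.03), to 0.0259 with 5 kb windows, and for the upstream border step with 5 kb windows, to -0.11 (QuadDel minus WT), -0.10 (αP+G minus WT αYFP), -0.0546 (αPonly minus WT αYFP, -0.0835 with 20 kb) and -0.0464 (αP+G minus αPonly). None of these passed its test.

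Leaving out each library in turn gave 0 to 5 called fragments for QuadDel against WT, 0 to 3 for αP+G and 0 to 1 for αPonly against WT αYFP, and 0 to 2 for αP+G against αPonly. Called segments were 1 to 6, 1 to 4, 0 to 2 and 0 to 2 in the same order, and calls of R2 against R1 0, 0, 0 and 0 to 2. The TAD share difference ran from -0.25 to 1.39, -0.19 to 2.67, -0.90 to 1.96 and 0.118 to 1.12 percentage points, the sub-TAD end step from 0.10 to 0.28, -0.0319 to 0.16, 0.0225 to 0.14 and -0.13 to 0.0684, the insertion step from 0.13 to 0.31, 0.23 to 0.28, 0.12 to 0.19 and 0.07 to 0.13, and the upstream border step from 0.05 to 0.23, -0.0172 to 0.18, -0.0311 to 0.17 and -0.0418 to 0.0723.

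Libraries with equal replicate numbers had weakly correlated deviations (-0.14 to 0.12). Each αP+G library compared matched the WT αYFP library of its own number best (correlations 0.086, 0.102 and 0.076). Some pairs in the other comparisons did not, so whether libraries were paired was not established. With a replicate block, HS+48 to HS+65 had an edgeR adjusted p of 0.118 between QuadDel and WT, 1 fragment was called for QuadDel against WT and 1 segment for αPonly against WT αYFP, and it moved no other count of calls by over 1.5 times.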
